A study of Mus musculus with 12 samples.

Results

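The genes described here are the PGC-1 coactivators and the regulators of mitochondrial biogenesis that work with them. They were chosen by symbol as a family known from Huntington disease, in which loss of PGC-1alpha has been described, and are 10 of the 41388 genes in each deposited file. The 10 are Ppargc1a, Ppargc1b and Pprc1, the coactivators themselves; Esrra, Esrrg and Ppara, nuclear receptors that recruit them; Nrf1 and Tfam, which carry the signal to respiratory genes and to mitochondrial DNA; and the deacetylases Sirt1 and Sirt3. The rule used no measured value, but earlier results of these data were known when the genes were chosen.

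RNA was sequenced from mouse primary cortical neurons of Swiss Webster embryos at embryonic day 16. All neurons received lentivirus at day 5 in vitro and were harvested at day 10 in vitro, with ribosomal RNA removed by Ribo-Zero. There were 3 groups of 4 libraries. One carried the control vector, one (Htt-25Q) carried wild-type huntingtin exon 1 with 25 glutamines, and one (Htt-72Q) carried mutant exon 1 with 72 glutamines. The constructs hold exon 1 alone, and neither the promoter that drives them nor the species of their huntingtin sequence is stated in the sources used here. Control vector 2 was placed by its title, since its infection label differs in wording from that of the other controls. The labels number 5 preparations without saying what the numbers stand for. Tests below are unpaired unless a block by preparation is named. Libraries of the same preparation number deviated together. In Htt-72Q against control vector, 3419 genes were called without that block and 4500 with it. No label says that replicates came from separate litters or cultures, so p-values measure the spread between these libraries, which may be technical.

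PGC-1 coactivators bind no DNA of their own. They dock on nuclear receptors such as the estrogen-related receptors and PPARalpha, and on nuclear respiratory factor 1, and raise transcription of respiratory chain and fatty acid oxidation genes. Nuclear respiratory factor 1 in turn drives Tfam, whose protein packages mitochondrial DNA and starts its transcription. Upstream, CREB induces Ppargc1a, while AMPK and Sirt1 modify the PGC-1alpha protein. In the brain, PGC-1alpha is best known from GABAergic interneurons.

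Depth and library make-up set the limits of what follows. Total counts ran from 12.4 M to 27.5 M per library, and 10 of 10 regulators passed the filter on low counts. Control vector 1 and Htt-72Q 3 stood apart from the other libraries in the balance of long and short genes: the median log2 deviation of genes of at least 6 kb of exon minus that of genes under 2 kb was 0.62 in Control vector 1 and -0.44 in Htt-72Q 3, against -0.16 to 0.08 in the others. Htt-72Q 3 also had the fewest genes with a count, 17377. Htt itself, whose row can count the constructs only if their reads align to the mouse gene, changed by 0.24 ± 0.25 (SE) on the log2 scale between Htt-72Q and control vector, which did not pass (edgeR's quasi-likelihood test, adjusted p = 0.527). Without Control vector 1 that difference was 0.59 with an adjusted p of 0.0361.

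Pan-neuronal markers were present in every group, and their summed level was lower in Htt-72Q. The 6 neuron markers summed to 6470 to 7496 TMM-scaled CPM (counts over a library total, per M, after correction of that total by the TMM factor) in control vector, 5926 to 6929 in Htt-25Q and 4662 to 4866 in Htt-72Q. Of these 6, 4 were called lower in Htt-72Q against control vector and 0 higher. Of all genes tested, 13.8% were called lower in that comparison and 9.45% higher. The 8 markers of GABAergic interneurons summed to 221 to 292 in control vector, 184 to 312 in Htt-25Q and 111 to 170 in Htt-72Q. Against control vector 4 of 8 were called lower and 0 higher, beside the same 13.8% and 9.45% of all genes. The 8 astrocyte markers summed to 2692 to 3173, 2421 to 3083 and 2502 to 2914 in the same order, with 0 of 8 called by edgeR (1 with an unadjusted p under 0.05 against control vector). The 7 microglial markers summed to at most 25.1 in any library, and Tmem119, a defining one, was at 0 in all control vector and Htt-25Q libraries. Fewer cells of a type and less RNA per cell cannot be told apart in these bulk samples, and the part of cell makeup in the results below was not tested.

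The promoters of the regulators were searched for letters that match binding elements of transcription factors. These were CREB, the estrogen-related receptors (ERR), nuclear respiratory factor 1 (NRF1), GABP and the MEF2 factors. The 300-base windows came from RefSeq on GRCm38.p6 (250 bases before each annotated start and 50 after it), with 14 windows for 9 of the 10 genes. Ppargc1a (ENSMUSG00000029167; GRCm38 chromosome 5, 51454249 to 51567725, minus strand) is shown because it is the CREB target at the head of the pathway. Its 250 bases before the start, chr5:51567726-51567975 on the minus strand, carry 1 copy of the core of the cAMP response element in the opposite orientation, in capitals, beginning 49 bases before the start:
Ppargc1a: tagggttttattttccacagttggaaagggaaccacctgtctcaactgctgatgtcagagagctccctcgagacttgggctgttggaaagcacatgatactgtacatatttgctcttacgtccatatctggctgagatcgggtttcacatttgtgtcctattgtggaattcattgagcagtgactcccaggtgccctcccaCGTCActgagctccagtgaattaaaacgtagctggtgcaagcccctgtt

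The shorter sequences below hold matches to elements of these factors, and each is 30 bases long with the matched letters in capitals. Distances are counted from the RefSeq start of each window. For these sequences that start lies inside the gene span given below and not at its outer end. The Tfam sequence (chr10:71238073-71238102, minus strand) holds a match to the ETS element bound by GABP, 47 bases before the start. The Ppara sequence (chr15:85735735-85735764, plus strand) holds a match to the core of the NRF1 element, 30 bases before the start. The Esrrg sequence (chr1:187608974-187609003, plus strand) holds a match to the MEF2 element, 22 bases before the start:
Tfam: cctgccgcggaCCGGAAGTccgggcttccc
Ppara: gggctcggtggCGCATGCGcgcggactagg
Esrrg: taaaactttgCTATTTATAGtctacgcccg

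The elements differed in how common their letters are in promoters. On either strand, TGACG, the core of the cAMP response element, was in 20.8% of all 32851 windows and in 4 of the 14 windows of the regulators. TGACGTCA, the full element that contains that core, was in 1.79% of windows and in 0 of the 14. The ERR element TCAAGGTCA was in 0.423% and in 0 of the 14, and CGCATGCG, the core of the NRF1 element, in 1.87% and in 1 of the 14. That 1 was in Ppara, and no window of Tfam held this core. The ETS element CCGGAAGT was in 3.89% and in 2 of the 14, the other being in Sirt3, and the MEF2 element in 0.557% and in 1 of the 14. A match is a description of these letters and not of binding in these neurons.

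Measured per length, Sirt3, Esrra and Tfam had the highest levels, and the coactivators stood in the middle and lower part of the order. On the deposited RPKM scale (counts per kilobase of exon and per M counts of the library), the mean level over 12 libraries was highest for Sirt3 at 34.4, followed by Esrra at 12.5 and Tfam at 10.9. Sirt1 (3.57), Nrf1 (3.30) and Ppargc1a (2.81) formed a middle group. Pprc1 (1.78), Ppargc1b (1.12), Esrrg (0.720) and Ppara (0.324) were lowest in mean RPKM. In this order, the ranges over 4 libraries of Sirt3 and Esrra, and of Tfam and Sirt1, were apart in all 3 groups. Esrra and Tfam, Sirt1 and Nrf1, Nrf1 and Ppargc1a, and Pprc1 and Ppargc1b did not differ beyond their spread in any group. Ppargc1a lay above Pprc1 without overlap in both Htt groups but not in control vector. Ppargc1b and Esrrg were apart only in Htt-72Q, and Esrrg and Ppara in control vector and Htt-25Q only.

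Ppargc1a encodes PGC-1alpha, the coactivator whose loss has been described in Huntington disease, and its level did not differ between groups beyond the spread of the libraries. It stood at 28.3, 16.1, 17.1 and 19.3 TMM-scaled CPM in Control vector 1 to 4. In Htt-25Q 1 to 4 it stood at 14.9, 17.1, 22.0 and 18.5, and in Htt-72Q 1 to 4 at 16.9, 17.8, 16.2 and 19.6 TMM-scaled CPM. Only Control vector 1 lay above all libraries of the other groups, and the ranges of the 3 groups overlapped. Between Htt-72Q and control vector the fitted log2 fold change was -0.20 ± 0.19 (SE; 95% interval -0.60 to 0.20; adjusted p = 0.487 by edgeR's quasi-likelihood test), an interval of 0.661-fold to 1.15-fold. Without Control vector 1 and Htt-72Q 3 it was 0.05. Against Htt-25Q it was -0.04 ± 0.19 (-0.44 to 0.36; adjusted p = 0.905), and for Htt-25Q against control vector -0.16 ± 0.19 (-0.55 to 0.24; adjusted p = 1.00). Within the 4 preparations that hold both groups, Htt-72Q was above control vector in 2 and below it in 2.

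Ppargc1b (ENSMUSG00000033871) encodes PGC-1beta, the closest relative of PGC-1alpha, and varied more between libraries of 1 group than between groups. Its values were 8.27, 2.75, 2.37 and 4.49 TMM-scaled CPM in Control vector 1 to 4. They were 2.47, 3.21, 5.35 and 6.66 in Htt-25Q 1 to 4, and 4.40, 3.55, 5.81 and 4.40 in Htt-72Q 1 to 4. The highest control library was 3.49 times the lowest, and the Htt-72Q range lay inside that of control vector. Between Htt-72Q and control vector the log2 fold change was 0.01 ± 0.39 (SE; 95% interval -0.82 to 0.84; adjusted p = 0.988), and against Htt-25Q 0.04 ± 0.39 (-0.79 to 0.86; adjusted p = 0.958). The first was 0.51 without Control vector 1 and -0.13 without Htt-72Q 3. Counts ran from 46 to 188 per library, and changes within these intervals were not detectable in these libraries.

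Pprc1 (ENSMUSG00000055491; chromosome 19, 46044886 to 46072915, plus strand) encodes PRC, the family member known to respond quickly to growth signals. It was measured at 28.0, 10.9, 10.4 and 11.0 TMM-scaled CPM in Control vector 1 to 4. It was measured at 14.2, 10.5, 15.3 and 16.3 in Htt-25Q 1 to 4, and at 14.0, 11.3, 8.60 and 10.2 in Htt-72Q 1 to 4. A single library, Control vector 1, was far above the rest, and the other 3 control libraries lay inside the range of Htt-72Q. Htt-72Q minus control vector came to -0.45 ± 0.30 (log2, SE; 95% interval -1.09 to 0.18; adjusted p = 0.301), and to 0.04 without Control vector 1. Against Htt-25Q it was -0.35 ± 0.30 (-0.98 to 0.29; adjusted p = 0.448). Its gene span overlaps that of Ldb1, and overlap of exons was not examined. Since strandedness is not given in the sources used here, reads in any shared stretches cannot be told apart.

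**Figure D1:**
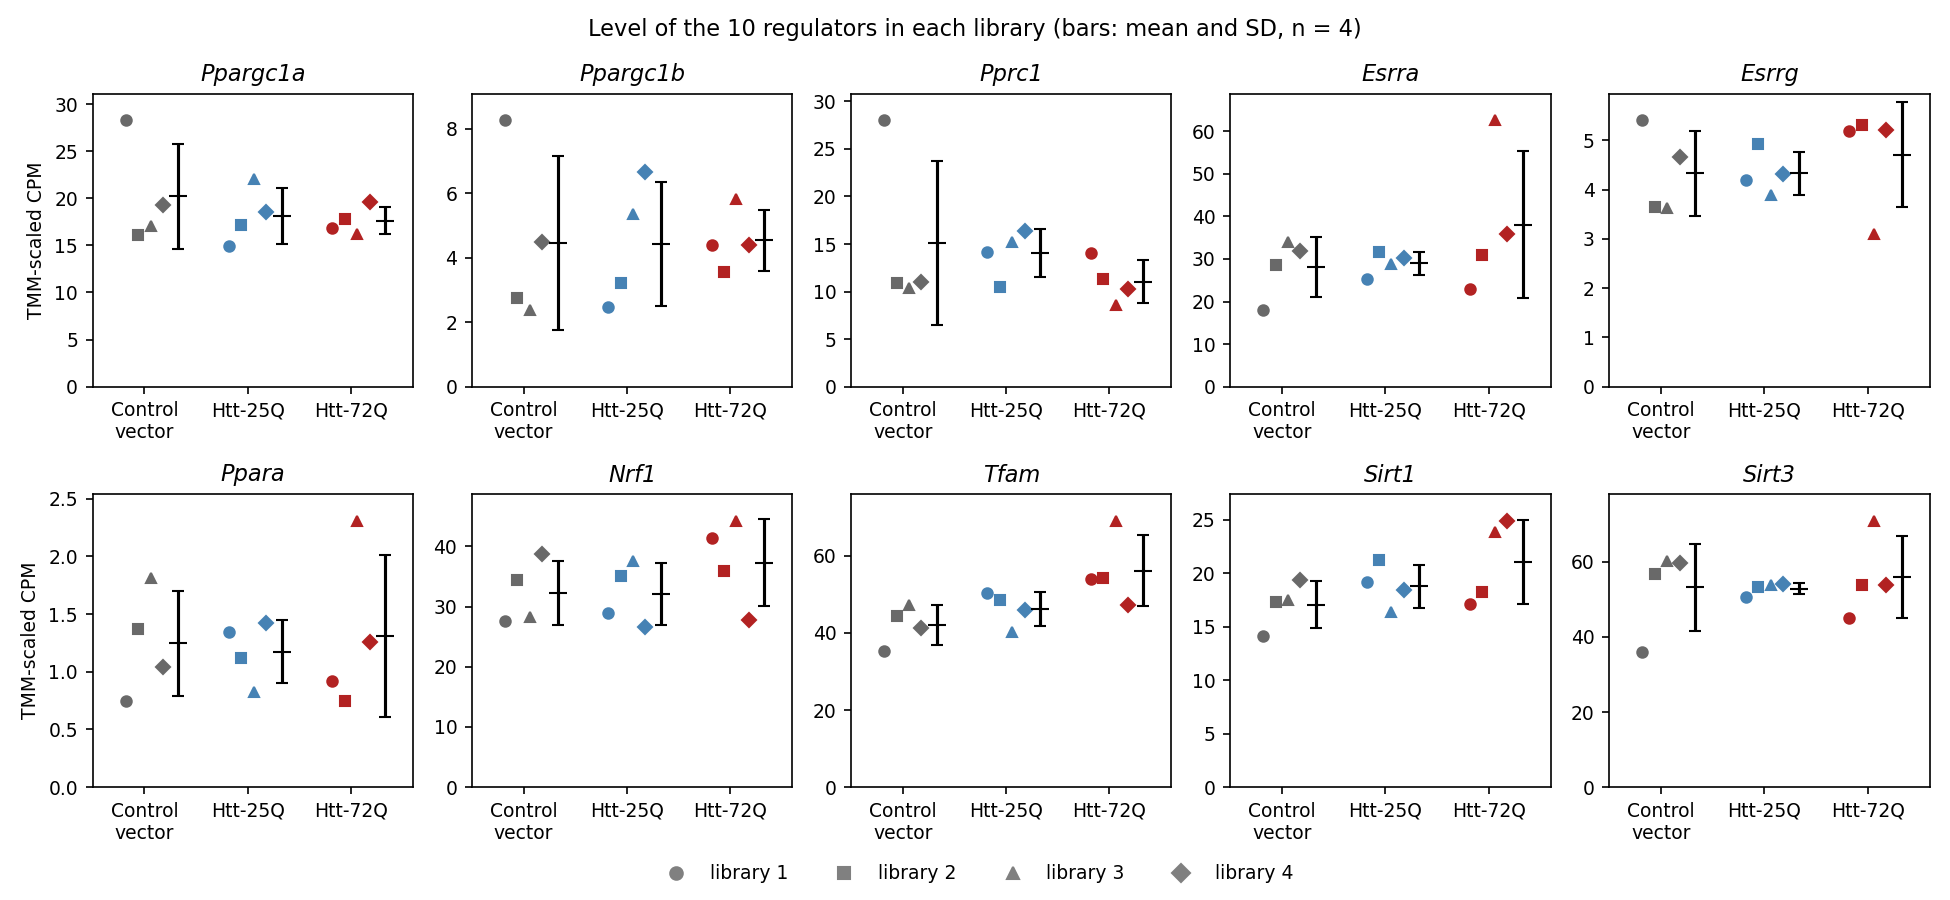
TMM-scaled CPM of each of the 10 regulators (one panel each, vertical axis from 0) in the 12 libraries, by group on the horizontal axis; symbols are libraries 1 to 4, and the black bar is the mean ± SD (n = 4). Control vector 1 stands above the other control libraries in Ppargc1a (28.3) and Pprc1 (28.0) and below them in Sirt3 (35.9). Tfam is the panel in which Htt-72Q passed the test against control vector. Its fitted log2 fold change (0.42) is not the largest, since that of Esrra, which did not pass, is 0.44.

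Among the nuclear receptors, Esrra (ENSMUSG00000024955; chromosome 19, 6910977 to 6921813, minus strand) encodes ERRalpha, the main partner of PGC-1alpha on respiratory chain genes. It stood at 18.0, 28.6, 33.9 and 31.9 TMM-scaled CPM in Control vector 1 to 4 and at 25.3, 31.6, 28.9 and 30.2 in Htt-25Q 1 to 4. In Htt-72Q 1 to 4 it stood at 22.96, 30.8, 62.6 and 36.0. Htt-72Q 3 was the highest of the 12 libraries and Control vector 1 the lowest, while the other 10 lay between 22.96 and 36.0. As fitted, Esrra in Htt-72Q differed from control vector by 0.44 ± 0.26 (log2, SE; 95% interval -0.12 to 1.00; adjusted p = 0.253), and by 0.27 without Control vector 1, 0.09 without Htt-72Q 3 and -0.07 without both. Within preparations Htt-72Q was above control vector in 4 of 4, by 0.11 to 0.88, and the replicate block by preparation gave an adjusted p of 0.0828. Against Htt-25Q it was 0.39 ± 0.26 (-0.17 to 0.95; adjusted p = 0.316). Esrra overlaps Trmt112, so some of its reads may belong to that gene.

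Esrrg (ENSMUSG00000026610; chromosome 1, 187608791 to 188214885, plus strand) encodes ERRgamma, a receptor of oxidative tissues and neurons. Its values were 5.41, 3.64, 3.63 and 4.66 TMM-scaled CPM in Control vector 1 to 4, and 4.20, 4.93, 3.89 and 4.32 in Htt-25Q 1 to 4. In Htt-72Q 1, 2 and 4 they were 5.18, 5.32 and 5.22, and in Htt-72Q 3 the value was 3.11, the lowest of all 12 libraries. The groups overlapped, and the log2 fold change of Htt-72Q against control vector was 0.12 ± 0.22 (SE; 95% interval -0.35 to 0.60; adjusted p = 0.734). It was 0.25 without Control vector 1, 0.27 without Htt-72Q 3 and 0.40 without both (adjusted p = 0.138). Against Htt-25Q it was 0.12 ± 0.22 (-0.35 to 0.59; adjusted p = 0.735).

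Ppara (ENSMUSG00000022383; chromosome 15, 85734983 to 85802819, plus strand) encodes PPARalpha, a receptor for fatty acids known mainly from liver, and was close to the limit of detection. With 11 to 36 counts per library it stood at 0.748, 1.37, 1.81 and 1.04 TMM-scaled CPM in Control vector 1 to 4. It stood at 1.34, 1.12, 0.822 and 1.42 in Htt-25Q 1 to 4 and at 0.919, 0.750, 2.31 and 1.26 in Htt-72Q 1 to 4. The ranges of all groups overlapped, with Htt-72Q holding both the highest library and one of the lowest. For Ppara the log2 fold change between Htt-72Q and control vector was 0.06 ± 0.40 (SE; 95% interval -0.80 to 0.91; adjusted p = 0.937), and against Htt-25Q 0.15 ± 0.40 (-0.70 to 1.00; adjusted p = 0.832). Against control vector it turned to -0.14 without Control vector 1, to -0.34 without Htt-72Q 3 and to -0.53 without both.

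Nrf1 (ENSMUSG00000058440; chromosome 6, 30047988 to 30153458, plus strand) encodes nuclear respiratory factor 1, which binds promoters of respiratory genes and of Tfam. It was measured at 27.6, 34.5, 28.3 and 38.7 TMM-scaled CPM in Control vector 1 to 4 and at 28.9, 35.2, 37.6 and 26.6 in Htt-25Q 1 to 4. In Htt-72Q 1 to 4 it was measured at 41.3, 35.9, 44.3 and 27.7. Htt-72Q 1 and 3 lay above every library of the other groups, but Htt-72Q 4 lay near the lowest controls. The difference between Htt-72Q and control vector was 0.21 ± 0.18 (log2, SE; 95% interval -0.16 to 0.58; adjusted p = 0.420), and against Htt-25Q 0.22 ± 0.17 (-0.16 to 0.59; adjusted p = 0.415).

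Tfam (ENSMUSG00000003923; chromosome 10, 71225464 to 71238280, minus strand) was the 1 regulator of 10 that passed the test, and it was higher in Htt-72Q than in control vector. It stood at 35.2, 44.5, 47.3 and 41.3 TMM-scaled CPM in Control vector 1 to 4 and at 50.3, 48.5, 40.3 and 46.1 in Htt-25Q 1 to 4. In Htt-72Q 1 to 4 it stood at 53.9, 54.4, 69.1 and 47.3. Of the 4 Htt-72Q libraries, 1, 2 and 3 lay above every other library, and library 4 lay just below Control vector 3, so that the groups overlapped. The mean rose from 42.1 ± 5.20 to 56.2 ± 9.23 TMM-scaled CPM (SD, n = 4 each), which is 0.42 ± 0.14 as fitted on the log2 scale (SE; 95% interval 0.11 to 0.72; adjusted p = 0.0464 by edgeR's quasi-likelihood test) or 1.33-fold. Htt-72Q was above control vector in 4 of 4 preparations, by 0.19 to 0.61 on the log2 scale. Against Htt-25Q the log2 fold change was 0.28 ± 0.14 (-0.02 to 0.58; adjusted p = 0.182), and for Htt-25Q against control vector 0.14 ± 0.14 (-0.16 to 0.44; adjusted p = 1.00).

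The Tfam call rested on a narrow margin. It was lost without any 1 of 10 libraries, all but Control vector 3 and Htt-72Q 4, with the log2 fold change between 0.30 and 0.50 and adjusted p between 0.0253 and 0.142 over the 12 fits that leave out 1 library. Without both Control vector 1 and Htt-72Q 3 it was 0.22 with an adjusted p of 0.214.

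Neither deacetylase was called. Sirt1 (ENSMUSG00000020063; chromosome 10, 63319005 to 63381704, minus strand), which deacetylates PGC-1alpha in the nucleus, stood at 14.1, 17.3, 17.5 and 19.3 TMM-scaled CPM in Control vector 1 to 4. It stood at 19.2, 21.2, 16.4 and 18.4 in Htt-25Q 1 to 4 and at 17.1, 18.3, 23.9 and 24.9 in Htt-72Q 1 to 4. Htt-72Q 3 and 4 were above all other libraries, and Htt-72Q 1 and 2 were within the control range. Htt-72Q exceeded control vector by 0.30 ± 0.16 (log2, SE; 95% interval -0.05 to 0.65; adjusted p = 0.203), which did not pass, and lay above it in 4 of 4 preparations. Against Htt-25Q it was 0.16 ± 0.16 (-0.18 to 0.51; adjusted p = 0.518).

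Sirt3 (ENSMUSG00000025486; chromosome 7, 140863670 to 140882309, minus strand) encodes the main deacetylase of the mitochondrial matrix. Its values were 35.9, 56.8, 60.2 and 59.8 TMM-scaled CPM in Control vector 1 to 4, and 50.6, 53.3, 53.7 and 54.0 in Htt-25Q 1 to 4. In Htt-72Q 1 to 4 they were 45.1, 53.9, 71.0 and 53.8. Htt-25Q was tight, whereas Control vector 1 was the lowest library and Htt-72Q 3 the highest. Sirt3 in Htt-72Q differed from control vector by 0.07 ± 0.17 (log2, SE; 95% interval -0.29 to 0.43; adjusted p = 0.796), and from Htt-25Q by 0.08 ± 0.17 (-0.28 to 0.44; adjusted p = 0.783). The first turned to -0.08 without Control vector 1, to -0.07 without Htt-72Q 3 and to -0.21 without both. The gene span of Sirt3 overlaps those of Ric8a and Psmd13, and overlap of exons was not examined. Reads in any shared stretches cannot be assigned with certainty.

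**Figure D2:**
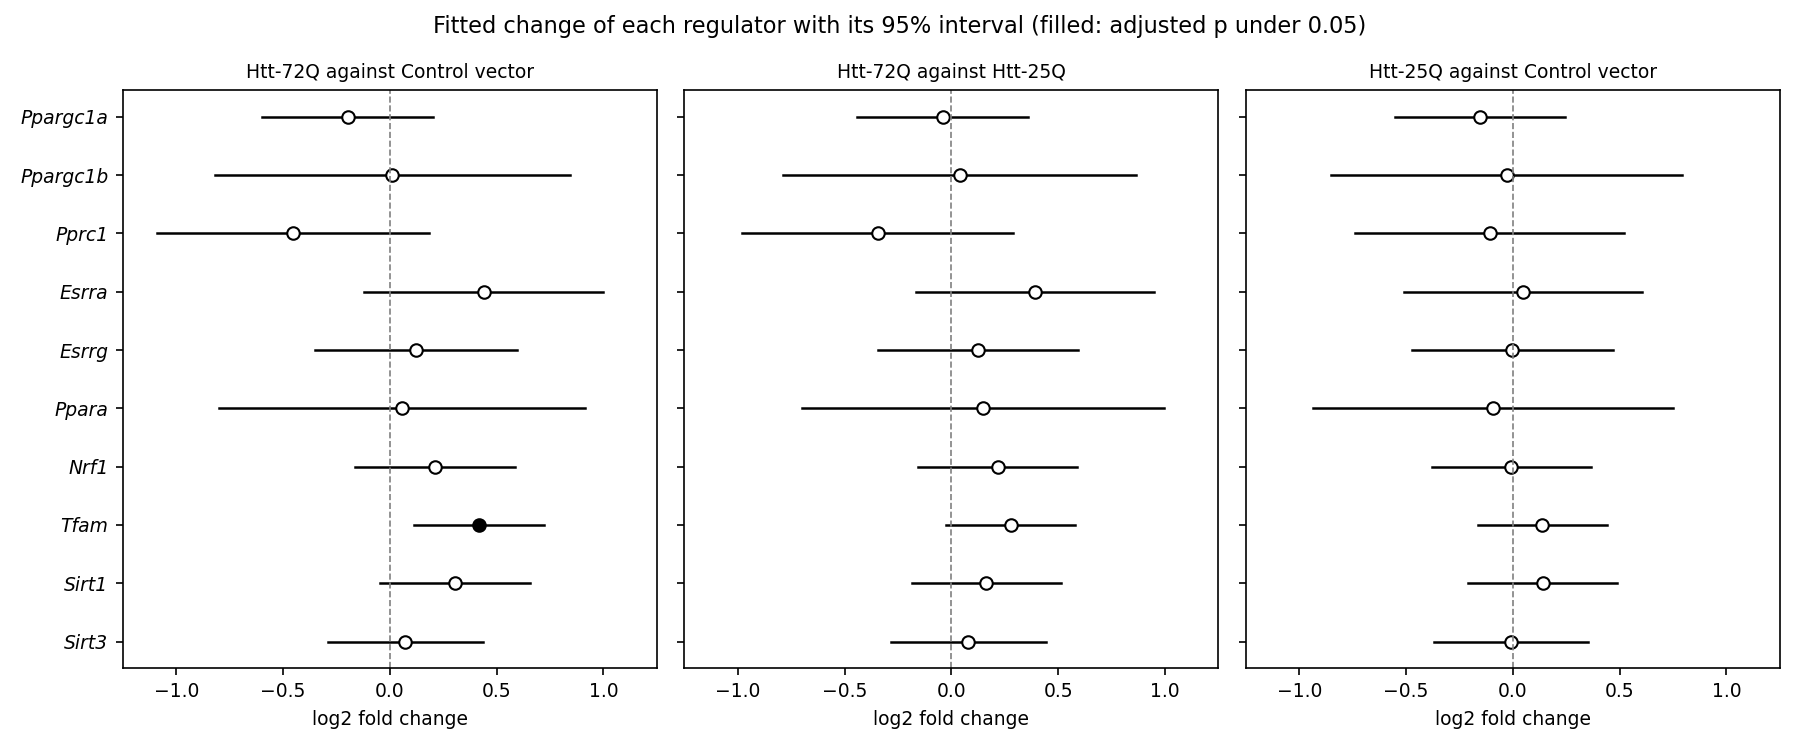
Log2 fold change (horizontal axis) of each regulator in the 3 comparisons, one panel each; points are fitted values, lines 95% intervals, and filled points have an adjusted p under 0.05. Tfam in Htt-72Q against control vector (0.42, interval 0.11 to 0.72) is the filled point, and the intervals of Ppargc1b and Ppara are the widest.

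Counted together, 1 of 10 regulators was called in Htt-72Q against control vector, where 23.2% of all 14707 genes tested were called (9.45% higher and 13.8% lower). That split of 1390 higher and 2029 lower genes became 1923 and 1700 when counts were scaled by library totals alone, and 1741 and 1774 with upper-quartile scaling, while Tfam stayed higher at 0.50 and 0.48. In Htt-72Q against Htt-25Q 0 of 10 were called by edgeR, DESeq2 or limma voom and 0 had an unadjusted p under 0.05, against 22.5% of all genes (9.08% higher and 13.4% lower, or 1336 and 1977 genes, and 1745 and 1696 with library totals alone). In Htt-25Q against control vector 0 of 10 were called, as were 0% of all genes (126 genes, 0.857%, had an unadjusted p under 0.05 in edgeR, and DESeq2 and limma voom also called 0). In Htt-72Q against control vector 8 of the 10 fitted changes were positive, with a median of 0.10 against 0.03 over all genes. Of these 8, the sign turned in at least 1 alternative for Ppargc1b (the same in 18 of 26), Ppara (21 of 25), Sirt3 (23 of 26) and Esrra (25 of 26). No regulator had groups that did not overlap in any of the 3 comparisons, where 23.7%, 26.7% and 0.993% of all genes did. The comparisons share the Htt-72Q or control vector libraries and are not independent of each other.

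The levels of several regulators over the libraries moved with the balance of long and short genes. Over the 12 libraries, Pearson's r between that balance and the log2 level was 0.90 for Pprc1, 0.71 for Ppargc1a, 0.49 for Esrrg and 0.35 for Ppargc1b. It was -0.92 for Sirt3, -0.89 for Esrra, -0.80 for Tfam, -0.77 for Sirt1, -0.62 for Ppara and -0.46 for Nrf1. Exon length was 7.516 kb in Pprc1, with a positive r, and 1.57 kb in Sirt3, with a negative one, but Nrf1, at 10.282 kb, also had a negative r over the 12 libraries. Over the 10 libraries without Control vector 1 and Htt-72Q 3, r was 0.62 for Pprc1, -0.66 for Esrra, -0.49 for Sirt3, -0.43 for Sirt1, 0.23 for Ppargc1b, -0.21 for Tfam and -0.03 for Ppara. Its sign turned for Ppargc1a (-0.04), Esrrg (-0.37) and Nrf1 (0.19). These values share their libraries and are descriptions with no test, and the part of this balance in the changes above was not tested.

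**Figure D3:**
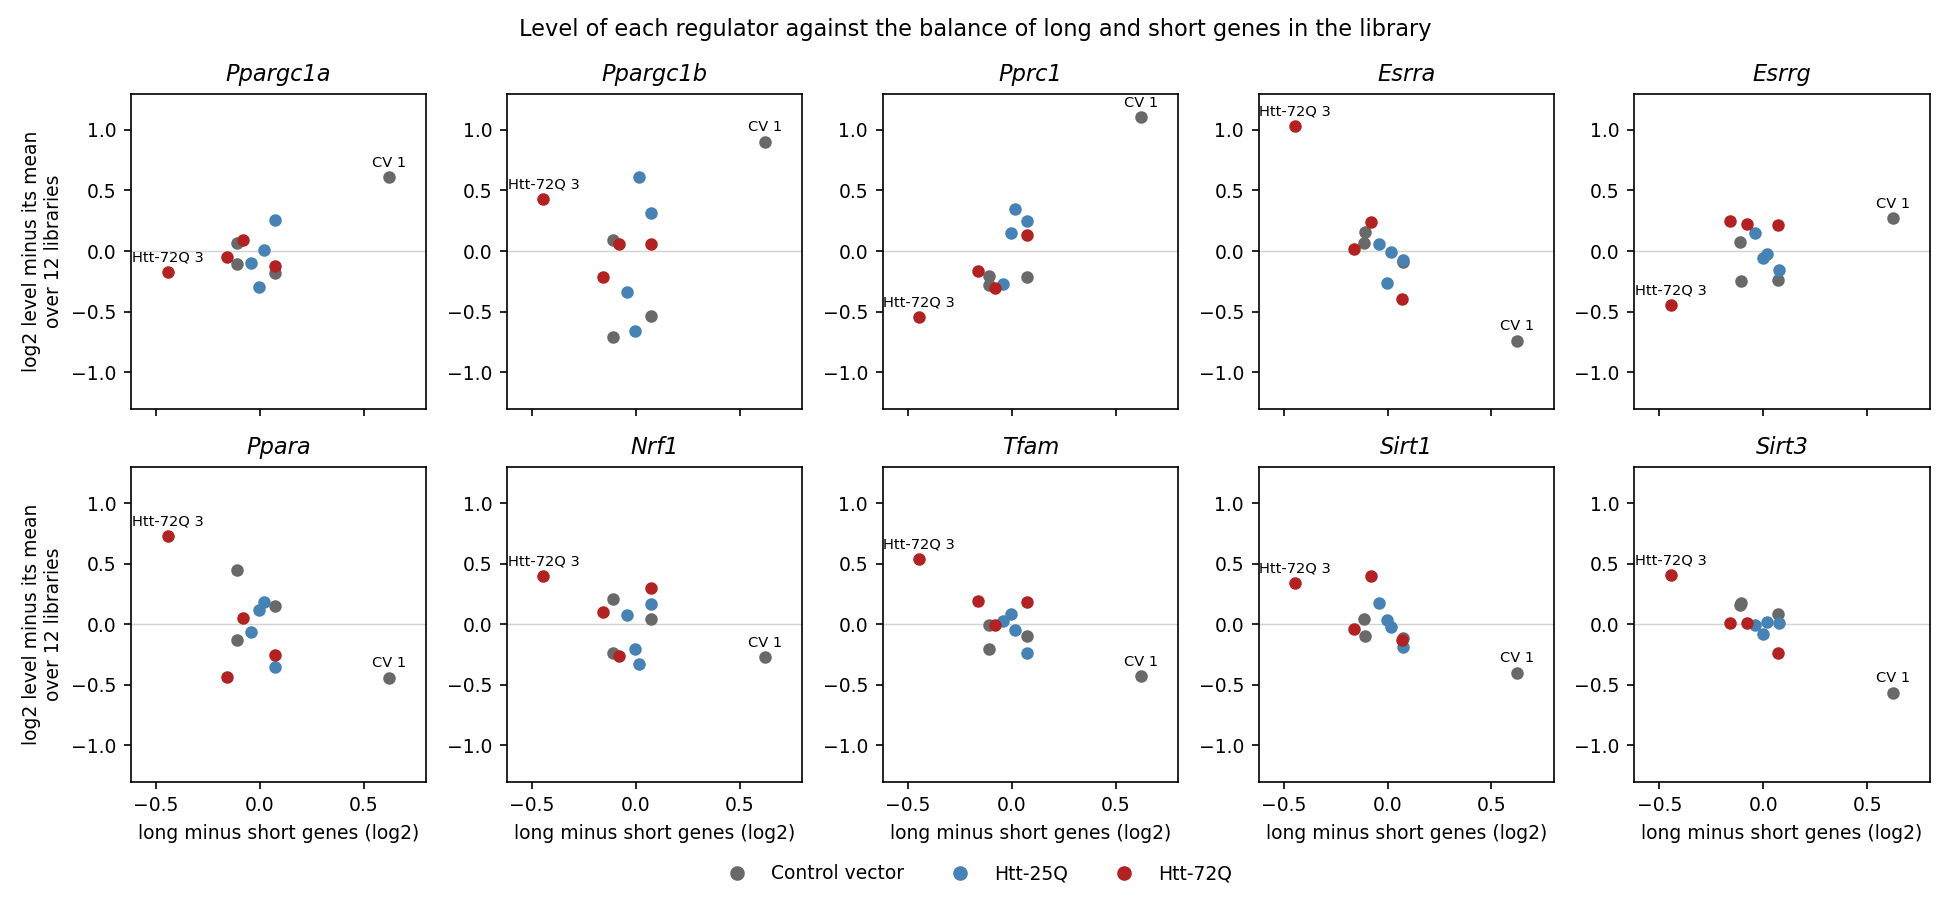
Log2 level of each regulator minus its mean over 12 libraries (vertical axis) against the median log2 deviation of long minus short genes in the same library (horizontal axis); points are libraries coloured by group, with Control vector 1 (CV 1) and Htt-72Q 3 named. Pprc1 (r = 0.90) runs upward and Sirt3 (r = -0.92) and Esrra (r = -0.89) downward, with the 2 named libraries at the ends.

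Between the regulators themselves, 21 of 45 pairs had a positive r over the 12 libraries. Esrra and Sirt3 were the most alike (r = 0.90), followed by Esrra and Sirt1 (0.78), Esrra and Ppara (0.74), Ppargc1a and Pprc1 (0.73) and Ppargc1a and Ppargc1b (0.72). Pprc1 and Sirt3 were the most opposed (-0.87), then Pprc1 and Esrra (-0.80), and Ppargc1a and Tfam stood at -0.73. Among all genes of sufficient level, those most like Ppargc1a were Nfic (r = 0.93), Elavl1 (0.92), Ube3b (0.91), Rnf10 (0.90) and Ago2 (0.90). Those most like Ppargc1b were Mccc1 (0.89), Pcbp1 (0.87), Med13 (0.86), Zfyve9 (0.86) and Maml1 (0.85). Those most like Pprc1 were Kdm6b (0.96), Rai1, Zadh2, Etl4 and Ylpm1 (0.95 each). All of these are descriptions over 12 libraries that share the pattern of Control vector 1.

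Several signalling genes upstream of PGC-1alpha passed the test. The gene lists here and below were chosen with earlier results of these data known, so their shares called are descriptions only. Of 17 AMPK, CREB and related genes tested, 5 fell and 2 rose in Htt-72Q against control vector (41.2% called, against 23.2% of all genes), with a median log2 fold change of -0.19 against 0.03 over all genes. Camkk2, the calcium-dependent kinase that activates AMPK, fell from 189 ± 24.6 to 68.8 ± 12.4 TMM-scaled CPM (SD, n = 4 each; log2 fold change -1.46 ± 0.16, adjusted p = 1.35e-05). Its 4 Htt-72Q libraries, at 58.0, 58.9, 75.2 and 83.0, all lay below the lowest control library at 153. Ppp3ca, the catalytic subunit of calcineurin, fell by 0.98 ± 0.13 on the log2 scale (adjusted p = 0.000101). The catalytic AMPK subunit gene Prkaa2 fell by 0.66 ± 0.13 (adjusted p = 0.00224), while the regulatory subunit gene Prkab2 rose by 0.56 ± 0.13 (adjusted p = 0.00767). The other riser, named after its value was seen, was Prkaa1, the other catalytic subunit gene, at 0.41 ± 0.13 (adjusted p = 0.0380), a call lost without any 1 of 8 libraries (kept without Control vector 3, Htt-25Q 1, Htt-25Q 3 or Htt-72Q 3). Against Htt-25Q the counts were 4 lower and 1 higher (29.4% called), with Camkk2 at -1.51 ± 0.16. For counts against Htt-25Q here and below, the share called of all genes was 22.5% (9.08% higher and 13.4% lower).

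Of 14 partners and co-regulators tested, 2 fell and 0 rose (14.3% called, below the 23.2% of all genes). Both genes that fell are known to restrain the pathway. Nrip1 encodes RIP140, a corepressor of nuclear receptors that opposes PGC-1alpha at its targets. It stood at 209, 148, 137 and 158 TMM-scaled CPM in Control vector 1 to 4 and at 45.4, 37.9, 33.8 and 47.7 in Htt-72Q 1 to 4, with no overlap. Its log2 fold change was -1.98 ± 0.16 (SE, adjusted p = 1.17e-06). Fbxw7, the substrate receptor of a ubiquitin ligase known to mark PGC-1alpha for breakdown, fell from 629 ± 177 to 150 ± 19.8 TMM-scaled CPM (log2 fold change -2.07 ± 0.21, adjusted p = 1.01e-05). Against Htt-25Q the changes were -2.00 ± 0.16 for Nrip1 and -2.25 ± 0.22 for Fbxw7. Both were called in 26 of 26 alternative fits of each comparison. The median of the list was -0.14 against control vector and 0.11 against Htt-25Q.

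Among 21 transcription factors that PGC-1 coactivators bind or that share their targets, 5 fell and 1 rose in Htt-72Q against control vector, and the 28.6% called is near the 23.2% of all genes. Mef2c, the MADS-box factor of cortical neurons, fell from 1893 ± 236 to 414 ± 46.2 TMM-scaled CPM (log2 fold change -2.19 ± 0.13, adjusted p = 1.10e-07), and its relative Mef2d fell by 0.75 ± 0.15 (adjusted p = 0.00265). The thyroid hormone receptor genes Thrb and Thra fell by 1.29 ± 0.15 (adjusted p = 2.73e-05) and 0.59 ± 0.13 (adjusted p = 0.00401). The others, named after their values were seen, were Foxo1 at -1.11 ± 0.30 (adjusted p = 0.0148) and Ppard at 0.65 ± 0.22 (adjusted p = 0.0470). Foxo1 kept its call without any 1 library but was at -0.54 with an adjusted p of 0.0641 without Control vector 1 and Htt-72Q 3, and Ppard lost its call without any 1 of 9 libraries (kept without Control vector 1, Htt-25Q 1 or Htt-72Q 1). The median of the list was 0.04, near that of all genes, and against Htt-25Q 4 fell and 1 rose (23.8% called, near the 22.5% of all genes). These falls stand beside lower summed neuron markers in the same libraries, given above. Of 5 markers of excitatory neurons 4 were called lower (13.8% of all genes were), among them Slc17a7 at -1.39 ± 0.21. Slc17a6 was at 0.37 ± 0.15 (adjusted p = 0.0923), and the part of these cells in the falls was not tested.

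Downstream, genes of mitochondrial DNA transcription and replication gave 4 of 16 higher and 0 lower in Htt-72Q against control vector (of all genes, 9.45% were higher and 13.8% lower). Polg2, the accessory subunit of the mitochondrial DNA polymerase, rose by 0.88 ± 0.25 (SE, log2 scale, adjusted p = 0.0180). The single-strand binding protein gene Ssbp1 rose by 0.79 ± 0.23 (adjusted p = 0.0235), the helicase gene Twnk by 0.56 ± 0.18 (adjusted p = 0.0380) and the RNA-binding protein gene Slirp by 0.75 ± 0.25 (adjusted p = 0.0445). Without Htt-72Q 3 the counts were 1 higher and 1 lower, and without Control vector 1 they were 2 higher and 0 lower. Leaving out 1 library kept the call of Polg2 each time and ended that of Ssbp1 for 4 libraries (Control vector 1, 2 and 4 and Htt-72Q 3). It ended the call of Twnk for 9 libraries, all but Control vector 1, Htt-25Q 3 and Htt-72Q 4, and that of Slirp for 9, all but Control vector 4, Htt-72Q 1 and Htt-72Q 4. Without both Control vector 1 and Htt-72Q 3, Polg2 was at 0.61 with an adjusted p of 0.0930. Against Htt-25Q 2 were higher and 0 lower (1 and 0 with the replicate block by preparation).

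Nuclear-encoded respiratory targets of NRF1 and ERR gave 0 of 23 called by edgeR against control vector (1 with an unadjusted p under 0.05), with a median of 0.18 that was 0.01 without Control vector 1 and Htt-72Q 3. With the replicate block by preparation 2 were higher and 0 lower. Against Htt-25Q 1 was higher, Sdha of complex II at 0.51 ± 0.17 (adjusted p = 0.0410), a call lost without Control vector 2, Htt-25Q 1, 2 or 4, or Htt-72Q 1 or 2. Of the 13 messenger RNAs of the mitochondrial genome 7 passed the filter and 0 were called by edgeR in either comparison (0 with an unadjusted p under 0.05), and their median of -0.40 against control vector was -0.02 without Control vector 1. It was 0.06 with a term for the classes of 6 libraries with low and 6 with high Gapdh, which are spread unevenly over the groups. The low class (9.16 to 20.3 Gapdh CPM) holds Control vector 1 and 3, Htt-25Q 1, 2 and 4, and Htt-72Q 3. The others, at 35.4 to 50.2, form the high class, to which the remaining Htt-72Q libraries belong. What the classes stand for was not tested.

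Mitochondrial messenger RNAs took 0.353 ± 0.171% of all counts with the control vector, 0.355 ± 0.137% with Htt-25Q and 0.309 ± 0.0655% with Htt-72Q (mean and SD of 4 libraries). These are shares of the deposited counts, in which 7 of these 13 messenger RNAs passed the filter. Whether mitochondrial reads were lost in mapping or counting was not tested. Htt-72Q against control vector gave p = 0.686 in a two-sided exact permutation test, whose smallest possible p is 0.0286. Mitochondrial ribosomal RNAs, which Ribo-Zero can also remove, held 8.98 ± 3.54%, 10.7 ± 2.34% and 13.1 ± 1.83% of counts. Their difference between Htt-72Q and control vector had an exact permutation p of 0.0857, and 0.429 when adjusted over the 6 tests of both shares. That test is unpaired. The share was 12.6, 10.8, 14.8 and 14.4% in Htt-72Q 1 to 4. In Control vector 1 to 4, of the same preparations in turn, it was lower each time, at 6.71, 7.80, 14.2 and 7.15%. No difference of either share passed the test.

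Genes of fatty acid oxidation, targets of PPARalpha and ERR, included 4 of 17 that rose and 1 that fell in Htt-72Q against control vector, with a median of 0.31 (29.4% called, against 23.2% of all genes). Acadm, the medium-chain acyl-CoA dehydrogenase, rose from 18.9 ± 2.12 to 34.3 ± 9.22 TMM-scaled CPM (SD, n = 4 each; log2 fold change 0.86 ± 0.21, adjusted p = 0.00911). Its control libraries lay at 15.97 to 21.1 and its Htt-72Q libraries at 25.5, 29.0, 46.4 and 36.4. The carnitine carrier gene Slc25a20 rose by 0.63 ± 0.18 (adjusted p = 0.0203). Hadhb, a subunit of the mitochondrial trifunctional protein, also rose and was named after its value was seen (0.69 ± 0.23, adjusted p = 0.0457). Leaving out 1 library kept Acadm each time, ended the call of Slc25a20 for Control vector 2, Htt-72Q 3 or Htt-72Q 4, and ended that of Hadhb for all but Htt-72Q 1. Fabp3, a fatty acid binding protein, fell by 0.67 ± 0.16 (adjusted p = 0.00632). With the replicate block by preparation 8 were higher and 1 lower, and without Htt-72Q 3 the counts were 2 and 1. Against Htt-25Q 3 were higher and 1 lower (2 and 0 with the replicate block, and 1 and 1 without Htt-72Q 3). The 23.5% called there is near the 22.5% of all genes.

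Antioxidant targets of PGC-1alpha gave 2 of 11 higher and 1 lower in Htt-72Q against control vector, and the 27.3% called is near the 23.2% of all genes. Gpx1, a glutathione peroxidase, stood at 17.0, 29.5, 35.0 and 32.6 TMM-scaled CPM in Control vector 1 to 4 and at 42.6, 51.6, 72.4 and 48.0 in Htt-72Q 1 to 4, without overlap (log2 fold change 0.91 ± 0.21, adjusted p = 0.00573). Without Control vector 1 and Htt-72Q 3 the log2 fold change was 0.55. Sod2, the superoxide dismutase of the mitochondrial matrix, rose from 264 ± 39.8 to 396 ± 68.9 TMM-scaled CPM (0.59 ± 0.14, adjusted p = 0.00868). Catalase (Cat) fell by 0.50 ± 0.17 with an adjusted p of 0.0493, a call made in 10 of 26 alternatives and kept, among the fits that leave out 1 library, only without Control vector 2, Control vector 4 or Htt-25Q 3. Against Htt-25Q both Gpx1 (0.93 ± 0.21) and Sod2 (0.57 ± 0.14) were higher and 0 were lower (18.2% called, against 22.5% of all genes).

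Genes described as PGC-1alpha targets in neurons gave 3 of 11 lower and 0 higher against control vector, and the 27.3% called is near the 23.2% of all genes. Reep1, which shapes the endoplasmic reticulum, fell from 466 ± 28.6 to 303 ± 11.7 TMM-scaled CPM (log2 fold change -0.62 ± 0.09, adjusted p = 0.000235), and its groups did not overlap. Vegfa, an angiogenic factor, fell by 0.67 ± 0.21 (adjusted p = 0.0331), which was not called without Control vector 2 or 3 or Htt-72Q 1 or 4. Against Htt-25Q 2 fell (18.2% called, against 22.5% of all genes), with Reep1 at -0.58 ± 0.09.

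In NAD metabolism and the other sirtuins 2 of 13 fell and 2 rose against control vector (30.8% called, against 23.2% of all genes). Parp1, a nuclear enzyme that consumes NAD, stood at 136, 147, 138 and 136 TMM-scaled CPM in Control vector 1 to 4 and at 85.1, 92.1, 84.5 and 91.9 in Htt-72Q 1 to 4. The groups were well apart, and the difference was -0.65 ± 0.09 on the log2 scale (SE, adjusted p = 0.000152). Nmnat2, the NAD-making enzyme that keeps axons alive, fell by 0.49 ± 0.11 (adjusted p = 0.00396). Nmnat3 (1.52 ± 0.50, adjusted p = 0.0386, from 0.353 CPM) and Sirt6 (0.57 ± 0.19, adjusted p = 0.0440) were higher, and neither was called without Htt-72Q 3. The Nmnat3 call was kept without Control vector 1, Htt-25Q 2, Htt-25Q 3 or Htt-72Q 2 and the Sirt6 call without Control vector 1 or Htt-72Q 4, and both were lost without any 1 of the others. Against Htt-25Q 2 fell and 2 rose (2 and 1 with the replicate block), with Parp1 at -0.71 ± 0.09. The share called there was 30.8%, against 22.5% of all genes.

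In Htt-25Q against control vector 0 genes of any of these lists were called.

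**Figure D4:**
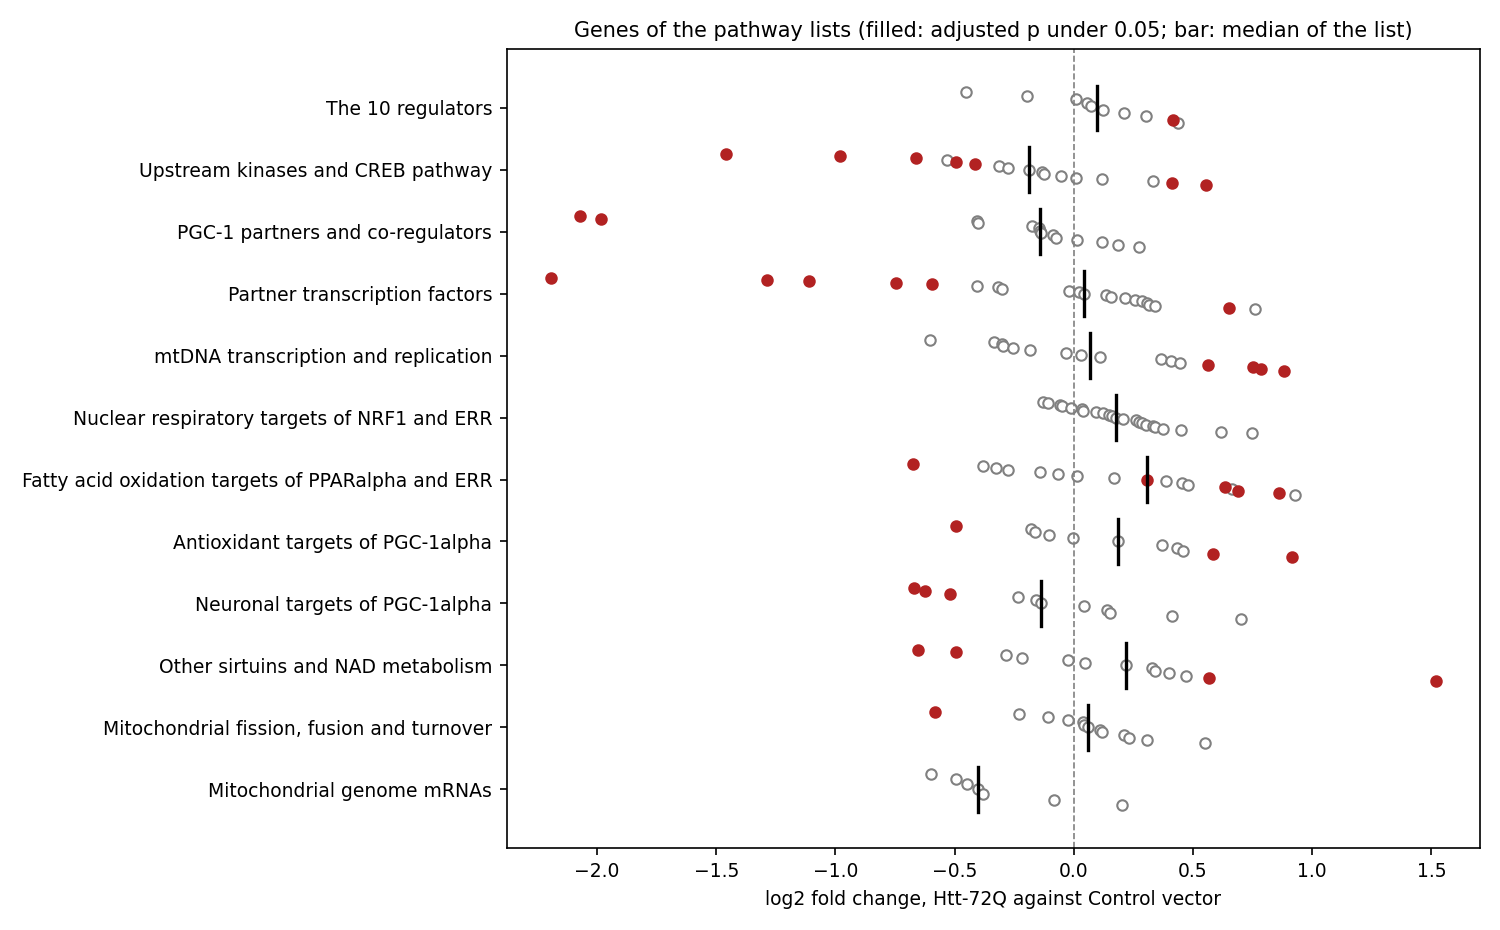
Log2 fold change in Htt-72Q against control vector (horizontal axis) of every tested gene among the 10 regulators and in the lists of related genes (rows); filled points have an adjusted p under 0.05 and the black bar is the median of the list. The points farthest to the left are Mef2c (-2.19), Fbxw7 (-2.07) and Nrip1 (-1.98), while the 10 regulators lie between -0.45 and 0.44.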

How the data were processed

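The authors deposited, for each of the 12 libraries, the count, CPM and RPKM of 41388 genes, 40254 of them with a symbol. STAR 2.0.4b, Subread, featureCounts 1.45 and GRCm38 are named per the submitters' processing notes, without their roles; strandedness and the treatment of multi-mapping reads are not stated in the sources used here. Per the labels, each library was sequenced on 2 lanes that were merged. The deposited CPM and RPKM values follow from the deposited counts and exon lengths (largest differences 5.09e-10 and 5.09e-11). Depth was 12.4 M to 27.5 M counts. Intervals are 95% intervals of the fitted difference between groups, and the spread between libraries enters their width. They are not ranges of single libraries. SE and intervals were derived from the test statistic of the fit.

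Counts as deposited were tested with edgeR 4.0.16 in R 4.3.3 (quasi-likelihood test with robust spread estimates, TMM scaling, filterByExpr with a minimum count of 10, all 3 groups in 1 model with 9 residual degrees of freedom, Benjamini-Hochberg adjustment over 14707 genes, threshold 0.05). A gene is called where its adjusted p is under that threshold. Likeness and the balance of long and short genes used log2(CPM + 0.5), computed from the deposited counts with TMM scaling. Shares of counts were compared by two-sided exact permutation tests. Alternatives used DESeq2 1.42.0, limma 3.58.1 (voom), other scalings and filters, replicate blocks and libraries left out. Of 26 alternatives, 2 were chosen after seeing the data: the fit without robust estimates, and the fit without Control vector 1 and Htt-72Q 3. The scripts were tested on simulated data.

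The regulators and lists were chosen with earlier results of these data known. Genes named are the 10 regulators, Htt, up to 4 called genes of smallest p in each list, the 5 genes most like each coactivator (mean of at least 1 CPM), and markers; exceptions are stated. A list symbol without a row was left out (Prmt1). Some called genes of the lists are not reported here. Replicate numbers were checked: libraries of the same preparation number in the labels deviated together in 10 of 10 pairs (correlation 0.12 to 0.52). Pairs of different preparations ran from -0.58 (Control vector 3 and Htt-72Q 1) to 0.51 (Control vector 3 and Htt-25Q 2). Htt-25Q 4 was at 0.47 with Htt-72Q 4 and 0.46 with Control vector 4, both of preparation 27_1, and at -0.38 with Control vector 2. The labels state no pairing, so the main fit has no block, and the block by preparation is an alternative. Promoter windows are RefSeq's on GRCm38.p6; the Ppargc1b window is not reported here.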

Additional observations from a re-analysis of the deposited data

Results flagged for a closer look

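In 36 sets of 4 values (the 10 regulators and the mitochondrial shares by group), 4 held a library far from the other 3, measured by its gap to the nearest value relative to the range of the set. Chance flags about 1 in 20 such sets. Pprc1 in Control vector 1 was at 28.0 TMM-scaled CPM, with the next control library at 11.0. Sirt3 in the same library was at 35.9 TMM-scaled CPM, with the next at 56.8, so that this library was the highest control for one gene and the lowest for the other. Esrrg in Htt-72Q 3 was at 3.11 TMM-scaled CPM, with the next Htt-72Q library at 5.18. Mitochondrial ribosomal RNA took 14.2% of counts in Control vector 3, with the next control library at 7.80%. The first 3 values belong to the libraries at the ends of the balance of long and short genes, whose part in them was not tested.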

How the results depend on the processing

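Over 26 alternatives and 3 comparisons, 762 of 777 values of the 10 regulators stayed on the same side of the threshold, and 15 lost the call, all of them Tfam in Htt-72Q against control vector. Besides the fits without a library, that call was lost with limma voom (adjusted p = 0.0558), without a filter on low counts (0.121), with only the groups compared (0.0982) and with a replicate block by title number (0.0518). With the replicate block by preparation, which pairs the libraries except Htt-25Q 4, alone in its preparation, Tfam was at 0.41 (adjusted p = 0.0227) and the call of no regulator changed. Against Htt-25Q that block ended the calls of Slirp, Acadm, Fabp3, Slc25a20 and Sirt6, among others. In Htt-72Q against control vector the number of genes called was 3419, with 2679 to 3258 when 1 library was left out, 4500 with the block by preparation, 3993 with DESeq2 and 2607 with only the groups compared. In Htt-72Q against Htt-25Q it was 3313, with 2297 to 3893 when 1 library was left out, and in Htt-25Q against control vector it was 0 in every alternative run. Counts were lowest for Ppara (11 to 36 per library), Esrrg (39 to 123) and Ppargc1b (46 to 188), which limits the precision of their values. Ppara did not pass the minimum count of 50 and has no value there.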
